A study of Mus musculus with 14 samples.

Results

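The 33 genes described here code for enzymes of the citrate cycle, of the entry of pyruvate into it, and of the breakdown of the branched amino acids leucine, isoleucine and valine. They were chosen by name, with earlier results of these data known. Each was read from the brightest probe set annotated to it alone, and all 33 were measured among 19938 genes. The mice were male C57BL/6J at 5 months of age, and RNA came from the plantaris under functional overload, produced by synergist ablation, an operation that takes away muscles working beside the plantaris. Groups were muscles at days 1, 3, 5, 7, 10 and 14 of overload and at day 0, for which the labels give no overload and no sham operation. Each day had 2 Affymetrix Mouse Gene 1.0 ST arrays, 1 of pooled right and 1 of pooled left muscles, with 6 animals in each pool. Nothing in the labels tells if a day's right pool and left pool came from shared animals, so p-values measure the spread between pools, which may be technical, and not the spread between animals.

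The citrate cycle runs in the mitochondrial matrix, where it oxidises acetyl-CoA and passes the electrons to the respiratory chain. Pyruvate from glycolysis enters it as acetyl-CoA through the pyruvate dehydrogenase complex, which its kinases switch off by phosphorylation, or as oxaloacetate through pyruvate carboxylase. Skeletal muscle is a main site at which branched amino acids lose their amino group, and the resulting keto acids are oxidised in mitochondria to acetyl-CoA and succinyl-CoA. Oxidative fibres hold more of this machinery than glycolytic ones, and the plantaris of the mouse is mostly a fast muscle.

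The deposited values were intensities, read here as log2, and array medians lay between 242.8 and 254.9 on the linear scale. Fast fibre genes marked the tissue: their mean over 12 genes was 13.05 to 13.37 from day 3 to day 7 and 13.95 and 13.96 in the right and left pools at day 0, with the lowest value in the right pool of day 7. Macrophage and monocyte genes (12 genes) averaged 11.50 and 11.47 at day 3, against 8.60 and 8.43 at day 0. Hepatocyte genes, which a muscle should lack, differed between pools: 9 of them averaged 12.41 in the right and 10.68 in the left pool of day 1, against 10.33 in the right and 12.57 in the left pool of day 0. Several of the 33 enzymes are also abundant in liver. The median right minus left difference of the 33 was 0.06 at day 1 and 0.01 at day 0 (log2). At day 1, 27 of the 33 read higher in the right pool, by up to 0.53 (Suclg2), and at day 0, 18 did. The part of liver RNA in these gaps was not tested. Counts are therefore also given with day 0 left and day 1 right, the pools richest in hepatocyte genes, left out.

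All changes below are differences of log2 intensity between 2 days, given with the standard error of the limma fit (2 pools a day), and a gene was called changed at a Benjamini-Hochberg adjusted p under 0.05 over all 19938 genes. The enzymes fell together and early. At day 1 against day 0, 32 of the 33 fell and 0 rose, where 34.7% of all genes fell; the median change of the enzymes was -0.80 and that of all genes -0.14. At day 3 all 33 fell, against 23.4% of all genes, with a median of -1.31 for the enzymes and -0.07 for all genes. The 33 also fell at day 5 (38.1% of all genes; medians -1.23 and -0.16), at day 7 (37.8%; -1.19 and -0.15) and at day 10 (27.5%; -0.93 and -0.11). At day 14, 32 fell, against 20.7% of all genes, with a median of -0.55 for the enzymes and -0.08 for all genes. Relative to fast fibre genes of the same array, 26 were lower and 1 was higher at day 3, where 4.51% of all genes were lower and 80.6% higher. In bulk muscle, fewer fibres and less RNA of these genes per fibre cannot be told apart.

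At day 1, 10 of the 33 enzymes fell by more than 2-fold, where 3.17% of all genes did. Day 3 had 26 such falls (4.3% of all genes), and days 5 and 7 had 25 each (4.29% and 5.58%). Day 10 had 11 (2.55%), and day 14 had 1 (1.29%), that of pyruvate carboxylase. For each of the 33, the pools of every overload day stood clear of those of day 0. Pdk1 lay above them at day 1 and all else below. The share of all genes that stood clear in this way was not counted, so this separation is not read as particular to the enzymes. The exceptions among calls were Pdk1 at day 1 and Got2 at day 14, described with their families. With day 0 left and day 1 right both left out, 32 fell at day 1, 32 at day 3 and 30 at day 14. Leaving out the right pool of day 14 lowered the day 14 count to 27, the lowest of any single pool left out. The lowest mean over the days lay at day 3 for 19 enzymes, at day 7 for 9, at day 1 for 3 (Idh2, Dlat and Dbt), at day 5 for Fh1 and at day 10 for Suclg2.

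**Figure D1:**
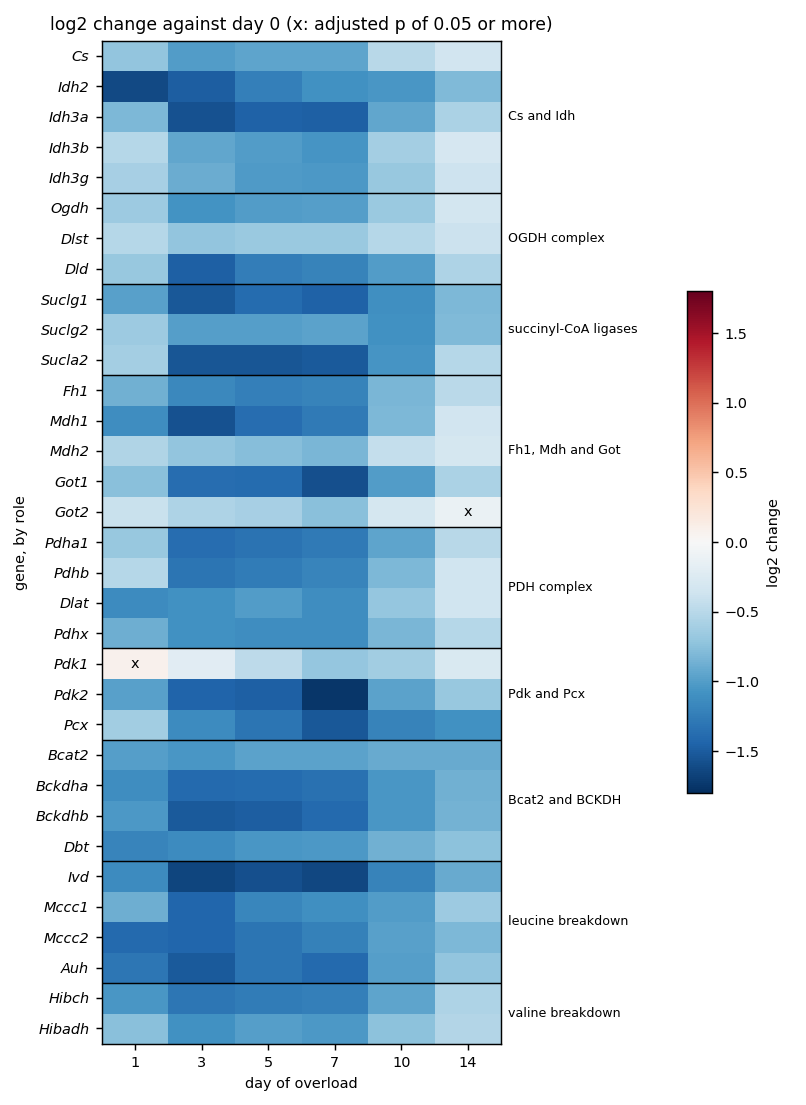
Change of each of the 33 genes (down the page, by role) at days 1 to 14 of overload (across), as the log2 difference from day 0 in colour, with a cross where the adjusted p was 0.05 or more. Blue fills the map, deepest at days 3 to 7, and only Pdk1 at day 1 and Got2 at day 14 carry a cross.

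Start regions are shown for 3 of the genes, Idh3b and Ogdh of the citrate cycle and Pdk2 of the control of pyruvate entry. Each holds a short motif of a factor known for mitochondrial or growth genes. RefSeq windows (build GRCm38.p6), from 250 bases before to 50 bases after an annotated start, were found for 31 of the 33 genes (none for Idh3a or Dbt), and both strands were searched. Idh3b, a regulatory subunit of the NAD-dependent isocitrate dehydrogenase, lies at chr2:130284402-130284701 on the minus strand, with the reverse complement of CCGGAAG, the core read by ETS factors such as GABP, in capitals:
Idh3b: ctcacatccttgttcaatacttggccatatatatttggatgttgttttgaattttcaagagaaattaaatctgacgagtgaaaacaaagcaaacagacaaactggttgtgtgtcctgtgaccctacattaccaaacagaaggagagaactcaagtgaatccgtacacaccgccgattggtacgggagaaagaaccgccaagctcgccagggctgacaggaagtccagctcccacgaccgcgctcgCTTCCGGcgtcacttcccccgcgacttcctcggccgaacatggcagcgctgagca
Ogdh, the first subunit of the 2-oxoglutarate dehydrogenase complex, has at chr11:6292308-6292607 on the plus strand, 1 of its 6 windows, an E-box (CACGTG) and the core GCGCATGCG of nuclear respiratory factor 1, both in capitals:
Ogdh: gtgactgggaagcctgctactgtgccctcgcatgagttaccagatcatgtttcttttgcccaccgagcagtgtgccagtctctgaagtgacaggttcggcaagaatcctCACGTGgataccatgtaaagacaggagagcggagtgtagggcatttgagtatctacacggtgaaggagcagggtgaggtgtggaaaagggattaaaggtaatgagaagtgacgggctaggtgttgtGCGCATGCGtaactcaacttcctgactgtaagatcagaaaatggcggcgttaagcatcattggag
Pdk2, a kinase that switches pyruvate dehydrogenase off, lies at chr11:95041322-95041621 on the minus strand, 1 of its 2 windows, with an E-box in capitals:
Pdk2: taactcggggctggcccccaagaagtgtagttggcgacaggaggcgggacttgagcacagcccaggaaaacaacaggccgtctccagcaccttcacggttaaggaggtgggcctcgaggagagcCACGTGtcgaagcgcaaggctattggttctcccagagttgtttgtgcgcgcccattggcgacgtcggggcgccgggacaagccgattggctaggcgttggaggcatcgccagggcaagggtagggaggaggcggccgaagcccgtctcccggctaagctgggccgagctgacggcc

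The E-box was in windows of 4 of the 31 enzymes (Ogdh, Pdk2, Mccc2 and Pcx), and 8.093% of all genes had it. The ETS core was in 4 (Idh3b, Dlst, Auh and Idh3g), against 9.928% of all genes. The nuclear respiratory factor 1 core was in Ogdh alone among the 31, and in 1.95% of all genes. The short nuclear receptor site AAGGTCA was in 2, Ogdh and Got1, against 5.38% of all genes, and the longer estrogen-related receptor element TNAAGGTCA, which contains it, was in 0 of the 31 and in 1.432% of all genes. A match describes letters in these windows only.

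Citrate synthase, Cs, joins acetyl-CoA to oxaloacetate and is a common measure of mitochondrial content. In right and left pools it read 13.21 and 13.24 at day 0, 12.54 and 12.48 at day 1, 12.21 and 12.22 at day 3, 12.39 and 12.15 at day 5, 12.25 and 12.29 at day 7, 12.75 and 12.69 at day 10, and 12.88 and 12.89 at day 14. Every overload pool lay under both day 0 pools, and the day 10 and day 14 pools lay above those of days 1 to 7. The change was -1.01 ± 0.08 at day 3 (limma, adjusted p = 1.12e-06) and -0.34 ± 0.08 at day 14 (adjusted p = 0.00594).

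The isocitrate dehydrogenases had their lowest means on different days, with no test between the genes. Idh2, the mitochondrial NADP-dependent enzyme, read 12.47 and 12.45 at day 0, 10.98 and 10.68 at day 1, 11.09 and 10.88 at day 3, 11.13 and 11.33 at day 5, 11.42 and 11.31 at day 7, 11.44 and 11.38 at day 10, and 11.59 and 11.74 at day 14. It was lowest at day 1, with a change of -1.63 ± 0.11 (limma, adjusted p = 4.63e-07), the largest fall of the 33 on that day. From day 1 to day 3 it moved by 0.15 ± 0.11 (adjusted p = 0.32), and at day 14 it was still -0.79 ± 0.11 from day 0 (adjusted p = 0.000194).

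Idh3a, the catalytic subunit of the NAD-dependent enzyme of the cycle, read 13.38 and 13.35 at day 0, 12.62 and 12.50 at day 1, 11.73 and 11.86 at day 3, 12.02 and 11.81 at day 5, 11.87 and 11.92 at day 7, 12.49 and 12.37 at day 10, and 12.73 and 12.85 at day 14. Its fall thus deepened after day 1: the change was -0.80 ± 0.09 at day 1 and -1.57 ± 0.09 at day 3 (limma, adjusted p = 1.05e-07). The regulatory subunits Idh3b, whose start region is printed above, and Idh3g fell by less, by 0.93 ± 0.07 and 0.89 ± 0.07 at day 3, and both reached their lowest mean at day 7, with changes of -1.06 ± 0.07 and -1.04 ± 0.07. Relative to fibre genes neither was called at day 3 (Idh3b -0.25, limma adjusted p = 0.053; Idh3g -0.20, 0.116) or at day 7 (Idh3b -0.24, 0.0573; Idh3g -0.22, 0.0925). Whether the 3 subunits differ in their change was not tested.

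The 2-oxoglutarate dehydrogenase complex makes succinyl-CoA. Its subunit Ogdh changed by -1.07 ± 0.09 at day 3 (limma, adjusted p = 1.42e-06) and by -0.34 ± 0.09 at day 14 (adjusted p = 0.0102). That last call was lost without the right pool of day 14 (adjusted p = 0.0684). Dlst, the succinyl-transferring core, had a shallower course, with changes of -0.52 ± 0.07 at day 1, -0.70 ± 0.07 at day 3 and -0.39 ± 0.07 at day 14; relative to fibre genes its sign turned at day 7 (0.16). Dld, the flavoprotein that this complex shares with the pyruvate and branched-chain complexes, changed by -0.69 ± 0.08 at day 1, by -1.48 ± 0.08 at day 3 (adjusted p = 7.11e-08) and by -0.56 ± 0.08 at day 14.

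Succinyl-CoA ligase turns succinyl-CoA into succinate and makes a nucleoside triphosphate. It pairs the alpha subunit Suclg1 with a beta subunit that uses ADP, Sucla2, or GDP, Suclg2. Sucla2 read 12.40 and 12.36 at day 0, 11.76 and 11.75 at day 1, 10.78 and 10.88 at day 3, 11.01 and 10.67 at day 5, 10.86 and 10.86 at day 7, 11.39 and 11.25 at day 10, and 11.83 and 11.89 at day 14. It fell in steps, by -0.62 ± 0.10 at day 1 and, between day 1 and day 3, by a further -0.93 ± 0.10 (limma, adjusted p = 4.72e-05). Between day 3 and day 14 it gained 1.03 ± 0.10 (adjusted p = 1.7e-05).

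Suclg2 followed another course. It read 11.17 and 11.26 at day 0, 10.82 and 10.30 at day 1, 10.17 and 10.28 at day 3, 10.24 and 10.19 at day 5, 10.37 and 10.13 at day 7, 10.16 and 10.07 at day 10, and 10.44 and 10.41 at day 14. The pools of day 1 stood far apart, by 0.53, the widest gap between right and left of any of the 33 on that day. Its lowest mean came at day 10, with a change of -1.10 ± 0.14 (limma, adjusted p = 6.51e-05), and the gain from day 3 to day 14 was 0.20 ± 0.14 (adjusted p = 0.332). Another probe set for Suclg2 gave changes of -0.93 at day 3 and -1.06 at day 10, close to those of the set used, -0.99 and -1.10. Suclg1 changed by -1.52 ± 0.09 at day 3 and -0.81 ± 0.09 at day 14 (adjusted p = 2.97e-05).

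**Figure D2:**
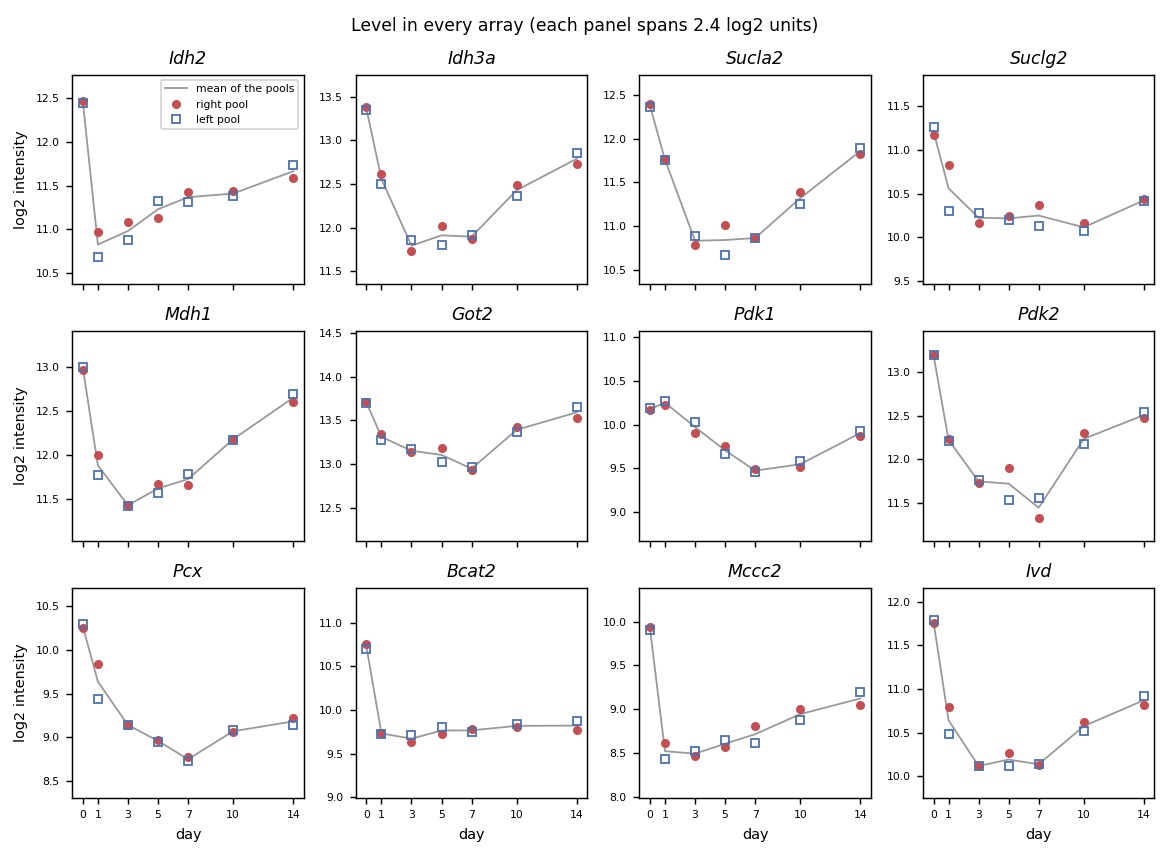
Log2 intensity (vertical axis) of 12 of the 33 genes by day (horizontal axis), with 1 point for each pool of 6 animals and a line through the mean of both pools; every panel spans the same number of log2 units. Idh2 and Bcat2 are near their lowest level by day 1, Sucla2 and Idh3a reach it at day 3 and Pdk1, Pdk2 and Pcx at day 7.

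Fumarase, Fh1, hydrates fumarate to malate and changed by -0.87 ± 0.07 at day 1, -1.23 ± 0.07 at day 5, its lowest day, and -0.48 ± 0.07 at day 14 (limma, adjusted p = 0.000291). The malate dehydrogenases oxidise malate to oxaloacetate, Mdh1 in the cytosol and Mdh2 in the matrix, and the aspartate aminotransferases Got1 (cytosol) and Got2 (matrix) complete the malate-aspartate shuttle with them. Mdh1 read 12.98 and 13.01 at day 0, 11.99 and 11.76 at day 1, 11.43 and 11.42 at day 3, 11.67 and 11.56 at day 5, 11.66 and 11.78 at day 7, 12.18 and 12.17 at day 10, and 12.61 and 12.70 at day 14. It had both a deep fall, -1.57 ± 0.09 at day 3 (limma, adjusted p = 6.59e-08), and the widest return of the 33, 1.23 ± 0.09 from day 3 to day 14 (adjusted p = 1.64e-06). At day 14 it stood at -0.34 ± 0.09 (adjusted p = 0.00832), a call lost without the right pool of day 14 (adjusted p = 0.0562).

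The matrix enzymes moved less. Mdh2 changed by -0.55 ± 0.06 at day 1 and by -0.71 ± 0.06 at day 3. It was lowest at day 7, with -0.82 ± 0.06 (0.0052 relative to fibre genes), and stood at -0.31 ± 0.06 at day 14 (limma, adjusted p = 0.00201). Got2 read 13.71 and 13.70 at day 0, 13.14 and 13.17 at day 3, 12.93 and 12.97 at day 7, and 13.53 and 13.65 at day 14. It fell by 0.55 ± 0.08 at day 3 and by 0.76 ± 0.08 at day 7 (adjusted p = 5.15e-06; 0.13 and 0.06 relative to fibre genes), and its day 14 value differed from day 0 by -0.11 ± 0.08, which was not called (adjusted p = 0.242). A second probe set of Got2 gave -0.56 at day 3 and -0.12 at day 14. Got1 changed by -1.37 ± 0.10 at day 3, by -1.58 ± 0.10 at day 7 (adjusted p = 1.87e-07) and by -0.56 ± 0.10 at day 14.

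The pyruvate dehydrogenase complex turns pyruvate into acetyl-CoA. Pdha1, the catalytic alpha subunit of its first enzyme and the target of the kinases, read 12.86 and 12.78 at day 0, 12.20 and 12.08 at day 1, 11.46 and 11.45 at day 3, 11.56 and 11.43 at day 5, 11.56 and 11.54 at day 7, 11.96 and 11.79 at day 10, and 12.26 and 12.36 at day 14. Levels of days 3 to 7 lay within a narrow band, below those of every other day. The change was -0.68 ± 0.08 at day 1, -1.37 ± 0.08 at day 3 (limma, adjusted p = 1.41e-07) and -0.50 ± 0.08 at day 14 (adjusted p = 0.000534).

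Its partner subunit Pdhb followed Pdha1, with -0.51 ± 0.10 at day 1 and -1.32 ± 0.10 at day 3. Its day 14 change of -0.35 ± 0.10 (limma, adjusted p = 0.0191) was not called without the right pool of day 0 (adjusted p = 0.0726), the left pool of day 0 (0.0581) or the right pool of day 14 (0.111). Dlat, the acetyl-transferring core, was as low at day 1 as later: it changed by -1.13 ± 0.10 at day 1, by -1.09 ± 0.10 at day 3 and by -1.12 ± 0.10 at day 7. Its day 14 change was -0.36 ± 0.10 (adjusted p = 0.0113, and 0.0658 without the right pool of day 14). Pdhx, which binds the flavoprotein to the core, changed by -0.88 ± 0.09 at day 1, -1.09 ± 0.09 at day 3 and -0.52 ± 0.09 at day 14.

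The 2 kinases on the list parted. Pdk1, a kinase also known as a target of the hypoxia factor HIF-1, read 10.16 and 10.19 at day 0, 10.23 and 10.28 at day 1, 9.91 and 10.03 at day 3, 9.75 and 9.66 at day 5, 9.49 and 9.46 at day 7, 9.51 and 9.58 at day 10, and 9.88 and 9.93 at day 14. Its day 1 pools lay just above those of day 0, by 0.08 ± 0.07 (limma, adjusted p = 0.385, not called), and from day 3 it lay below them. It changed by -0.70 ± 0.07 at day 7 (adjusted p = 5.67e-06, and 0.12 relative to fibre genes). Between day 3 and day 5 it alone of the 33 was called, with -0.27 ± 0.07 (adjusted p = 0.0364), where 4.74% of all genes fell. That count was 0 with equal array medians, with only the arrays of both days and relative to fibre genes. With 1 pool left out at a time it ranged from 0 to 1. The small day 3 fall of -0.21 ± 0.07 (adjusted p = 0.0322) was lost without the right pool of day 0 (0.0777), the left pool of day 0 (0.115) or the right pool of day 3 (0.205), and with only the arrays of both days (0.112). Its day 14 fall of -0.27 ± 0.07 (adjusted p = 0.00933) was lost without the right pool of day 14 (adjusted p = 0.0555) and with only the arrays of both days (0.0508).

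Pdk2, the kinase whose start region is printed above, read 13.19 and 13.20 at day 0, 12.23 and 12.21 at day 1, 11.73 and 11.76 at day 3, 11.91 and 11.54 at day 5, 11.33 and 11.56 at day 7, 12.30 and 12.17 at day 10, and 12.47 and 12.54 at day 14. All overload pools lay well below day 0. Its day 7 change of -1.75 ± 0.11 (limma, adjusted p = 1.88e-07) was the largest fall of any of the 33 at any day, and it then gained 0.79 ± 0.11 by day 10 (adjusted p = 0.00173).

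Pyruvate carboxylase, Pcx, which refills the cycle with oxaloacetate, read 10.25 and 10.29 at day 0, 9.84 and 9.44 at day 1, 9.14 and 9.14 at day 3, 8.97 and 8.95 at day 5, 8.78 and 8.72 at day 7, 9.06 and 9.08 at day 10, and 9.22 and 9.14 at day 14. It returned little: the change was -1.13 ± 0.11 at day 3, -1.52 ± 0.11 at day 7 and -1.09 ± 0.11 at day 14 (limma, adjusted p = 1.12e-05), and day 14 differed from day 3 by 0.04 ± 0.11 (adjusted p = 0.808). Against day 7 it had gained 0.43 ± 0.11 by day 14 (adjusted p = 0.00967).

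Branched amino acids first lose their amino group to Bcat2, the mitochondrial aminotransferase. Bcat2 read 10.76 and 10.69 at day 0, 9.74 and 9.73 at day 1, 9.63 and 9.71 at day 3, 9.73 and 9.80 at day 5, 9.78 and 9.75 at day 7, 9.80 and 9.84 at day 10, and 9.77 and 9.88 at day 14. It dropped within the first day and then stayed within a narrow range. Its change was -0.99 ± 0.07 at day 1 (limma, adjusted p = 4.76e-07), -1.05 ± 0.07 at day 3 and -0.90 ± 0.07 at day 14 (adjusted p = 1.73e-06), and no step between consecutive days was called. The gain from day 3 to day 14 was 0.15 ± 0.07 (adjusted p = 0.126).

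The branched-chain keto acid dehydrogenase then commits the carbon to oxidation. Bckdha and Bckdhb are the subunits of its first enzyme and Dbt its acyl-transferring core. Bckdha read 10.76 and 10.81 at day 0, 9.69 and 9.65 at day 1, 9.41 and 9.37 at day 3, and 9.82 and 10.01 at day 14. Its change was -1.12 ± 0.07 at day 1, -1.39 ± 0.07 at day 3 (limma, adjusted p = 4.83e-08) and -0.87 ± 0.07 at day 14. Bckdhb changed by -1.04 ± 0.10, -1.52 ± 0.10 and -0.85 ± 0.10 on the same days. Dbt had its lowest mean at day 1, with -1.19 ± 0.14 (adjusted p = 2.86e-05); its pools of that day, 9.94 and 9.44, were spread wider than those of day 3, 9.66 and 9.84. It changed by -0.74 ± 0.14 at day 14 (adjusted p = 0.00145), and its gain of 0.39 ± 0.14 between day 3 and day 14 just missed the threshold (adjusted p = 0.0501).

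Leucine's carbon passes through isovaleryl-CoA dehydrogenase (Ivd), methylcrotonyl-CoA carboxylase (Mccc1 and Mccc2) and methylglutaconyl-CoA hydratase (Auh). Ivd read 11.76 and 11.79 at day 0, 10.80 and 10.49 at day 1, 10.12 and 10.12 at day 3, 10.27 and 10.12 at day 5, 10.13 and 10.15 at day 7, 10.62 and 10.52 at day 10, and 10.82 and 10.92 at day 14. Its change of -1.65 ± 0.10 at day 3 (limma, adjusted p = 1.31e-07) was the deepest of the 33 on that day. The day 14 change was -0.90 ± 0.10 (adjusted p = 2.84e-05).

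Within each array of day 1, Mccc1 over Mccc2 was 0.58 (right) and 0.48 (left) above its day 0 mean (log2), with no test between the subunits. Mccc1, which carries biotin, changed by -0.87 ± 0.11 at day 1 and by -1.43 ± 0.11 at day 3, a further step of -0.55 ± 0.11 between them (limma, adjusted p = 0.00297). Mccc2 read 9.94 and 9.91 at day 0, 8.61 and 8.43 at day 1 and 8.46 and 8.52 at day 3. It was thus near its lowest level by day 1, with changes of -1.41 ± 0.09 at day 1 and -1.43 ± 0.09 at day 3. Auh changed by -1.30 ± 0.10 at day 1, by -1.51 ± 0.10 at day 3 and by -0.70 ± 0.10 at day 14 (adjusted p = 0.000165).

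In valine breakdown, Hibch releases 3-hydroxyisobutyrate from its CoA ester and Hibadh oxidises it. Hibch read 8.53 and 8.62 at day 3, against 9.87 and 9.89 at day 0, and changed by -1.04 ± 0.09 at day 1, -1.31 ± 0.09 at day 3 and -0.55 ± 0.09 at day 14 (limma, adjusted p = 0.000618). Hibadh read 11.80 and 11.95 at day 3, against 12.93 and 12.99 at day 0, and changed by -0.75 ± 0.09, -1.08 ± 0.09 and -0.52 ± 0.09 on those days (adjusted p at day 14 = 0.000702). A second probe set annotated to Hibadh was dim, with a mean of 5.54, and moved by 0.04 at day 3.

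Across roles, the day 1 change can be read as a share of each gene's largest change from day 0 (log2 scale, medians of the genes of a role, with no test). It was 87.2% for Bcat2 and the keto acid dehydrogenase, 77.3% for leucine breakdown and 74.6% for valine breakdown. The share was 57.3% for citrate synthase and the isocitrate dehydrogenases, 59.3% for the succinyl-CoA ligases, 64.4% for the pyruvate dehydrogenase complex and 66.8% over all 33. At day 14 the same share was 62.1% for Bcat2 and the keto acid dehydrogenase, 53.0% for the succinyl-CoA ligases, 50.6% for leucine breakdown and 45.4% for valine breakdown. It was 34.6% for the pyruvate dehydrogenase complex, 36.0% for citrate synthase and the isocitrate dehydrogenases, and 39.4% over all 33. The share left at day 14 did not divide branched-chain roles from cycle roles, since the succinyl-CoA ligases lay above leucine and valine breakdown.

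**Figure D3:**
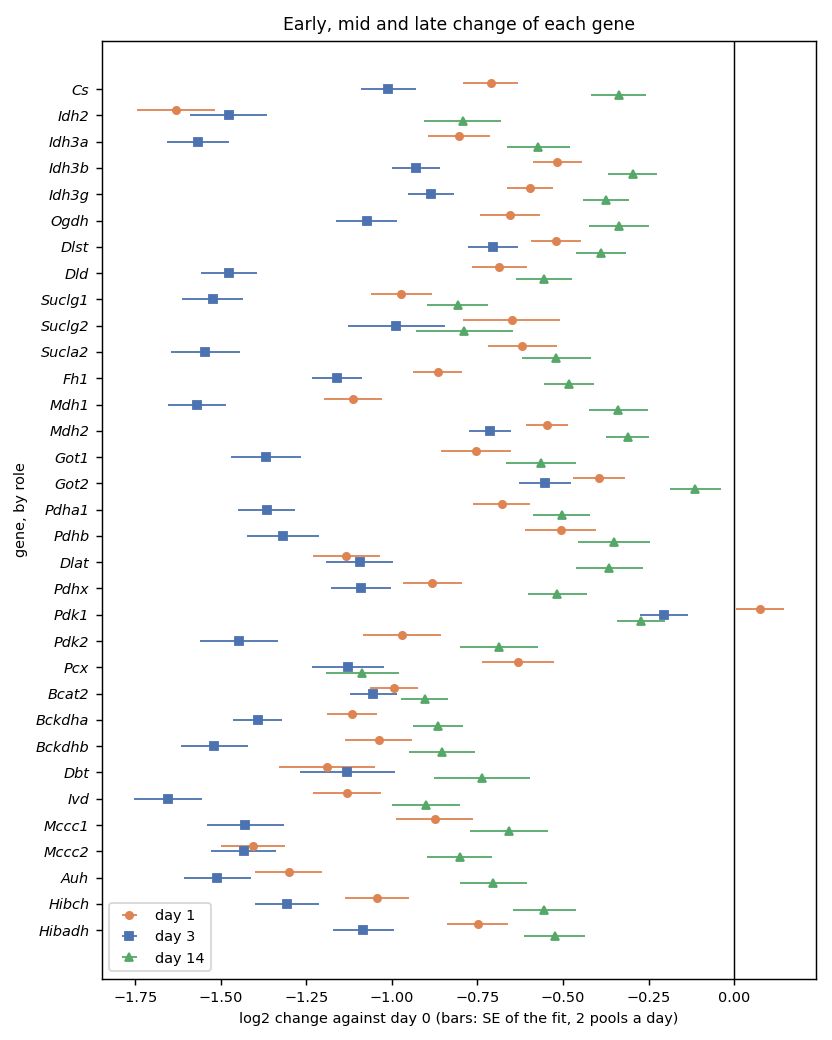
Log2 change from day 0 (horizontal axis) of each of the 33 genes (down the page, by role) at day 1 (circles), day 3 (squares) and day 14 (triangles), with bars of 1 standard error of the fit over 2 pools a day. Day 3 lies left of day 1 for Sucla2 and Idh3a, day 1 and day 3 lie together for Bcat2 and Mccc2, and day 14 stays near day 3 for Pcx and Bcat2.

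Steps between days give the shape of the course without day 0. Between day 1 and day 3, 22 of the 33 fell (13.2% of all genes) and 0 rose; the median step was -0.33 for the enzymes and 0.08 for all genes. Relative to fibre genes this step was mixed, with 5 lower (3.34% of all genes) and 4 higher (66%). The 11 not called were Idh2, Dlst, Suclg2, Mdh2, Got2, Dlat, Pdhx, Bcat2, Dbt, Mccc2 and Auh. Between day 3 and day 5 only Pdk1 fell (4.74% of all genes) and 0 rose, with 4 higher at an unadjusted p under 0.05. Between day 5 and day 7 limma called 0, where 0.487% of all genes fell and 0.667% rose; 2 were lower at an unadjusted p under 0.05. Between day 7 and day 10, 22 rose (6.95% of all genes), with a median of 0.36 against 0.02 for all genes. That count was 7 without the right pool of day 7, 12 without its left pool and 10 without the right pool of day 10. Relative to fibre genes most of the 33 were not called, with 7 lower (82.3% of all genes) and 1 higher (0.617%). The fibre genes themselves rose in 12 of 12 over this step. Between day 10 and day 14, 11 rose (2.11% of all genes), and this count was 1 or 0 when either pool of day 10 or of day 14 was left out.

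Over longer spans, day 14 lay above day 3 for 28 of the 33 (17.6% of all genes), with a median of 0.68 for the enzymes and -0.03 for all genes. The 5 not called were Suclg2, Pdk1, Pcx, Bcat2 and Dbt. Against day 7, 29 rose by day 14 (13.5% of all genes), with a median of 0.65 against 0.05 for all genes, and Idh2, Suclg2, Bcat2 and Dbt were not called. Most of these rises were not called relative to fibre genes. On that scale 6 were higher (3.34% of all genes) and 3 lower (79%) at day 14 against day 3, while 3 were higher (1.23%) and 6 lower (89.4%) against day 7. These spans share the day 14 pools. The 33 were called by the F test over days, as were 71.3% of all genes.

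Enzymes that do the same reaction in another place or with another partner were set against each other within each array, as the difference of their log2 values minus its day 0 mean, with no test. Mdh1 over Mdh2 was -0.86 and -0.85 in the right and left pools at day 3 and -0.03 and -0.02 at day 14. Got1 over Got2 was -0.87 and -0.77 at day 7 and still -0.47 and -0.43 at day 14. The cytosolic enzyme of each pair thus lost more than the matrix one in the first week, and the malate dehydrogenases were back at their day 0 ratio by day 14. Suclg2 over Sucla2 was 0.55 and 0.57 at day 3, where Sucla2 had fallen further, and -0.23 and -0.31 at day 14, after Sucla2 had regained more.

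The kinase ratio moved toward Pdk1: Pdk1 over Pdk2 was 1.19 and 1.29 at day 3 and 0.42 and 0.41 at day 14. Pdk4, a kinase induced by fasting that is not one of the 33, gave 1.60 and 1.60 over Pdk2 at day 1. Bcat1, the cytosolic counterpart of Bcat2 and likewise outside the 33, gave 3.73 and 3.76 over Bcat2 at day 3 and 2.03 and 1.89 at day 14. Macrophage genes rose on the same days, and their part in the Bcat1 ratio was not tested.

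**Figure D4:**
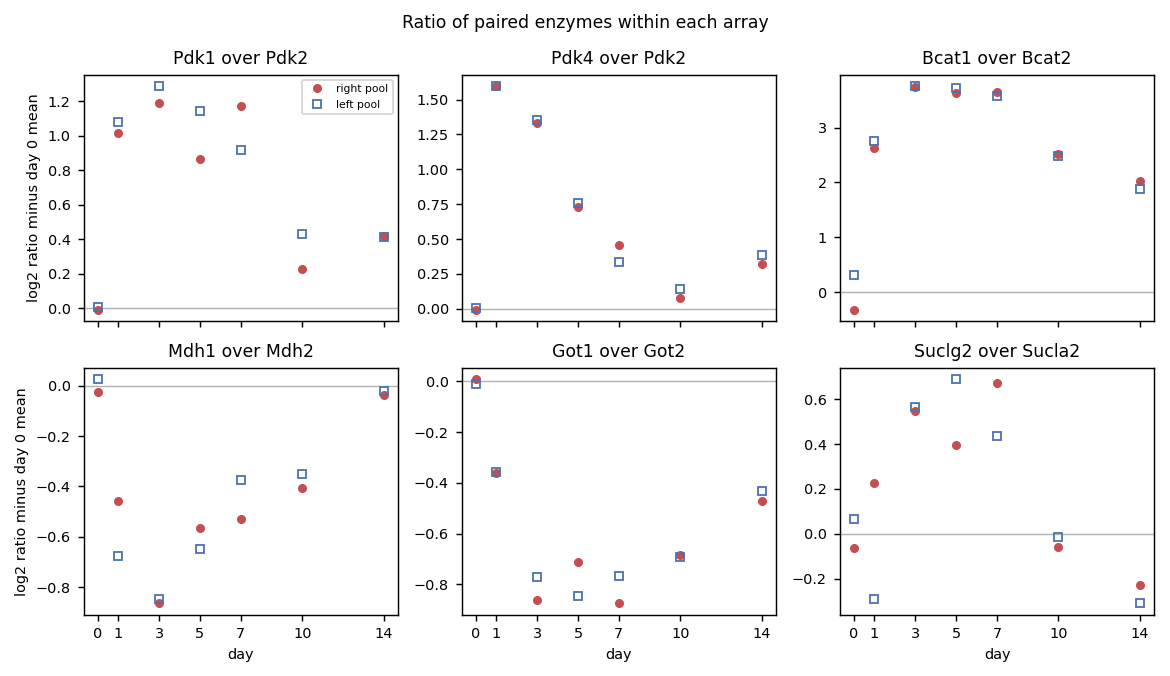
Log2 ratio of 6 enzyme pairs within each array, minus its day 0 mean (vertical axis, own scale in each panel), by day (horizontal axis), with 1 point for each pool. Pdk1 over Pdk2, Pdk4 over Pdk2 and Bcat1 over Bcat2 are above 0 at every overload day, while Mdh1 over Mdh2 and Got1 over Got2 are below it.

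Of 12 fast fibre genes, 5 fell at day 1 (34.7% of all genes) and 3 at day 14 (20.7%), near those shares. All 12 fell at days 3 and 7 (23.4% and 37.8% of all genes). Their medians at days 1, 3, 7 and 14 were -0.22, -0.69, -0.79 and -0.17. Macrophage and monocyte genes rose in 11 of 12 at day 1 and in 12 of 12 at days 3, 7 and 14. Genes of dividing cells rose in 5 of 5 at days 3, 7 and 14, and hepatocyte genes fell in 8 of 9 at day 7 (37.8% of all genes). The part of these cells in the changes given here was not tested. The 33 enzymes were therefore also read relative to the mean of the fibre genes in the same array. On that scale 24 of the 33 were lower at day 1 (8.14% of all genes) and 1 higher (28.7%), and 26 were lower and 1 higher at day 3. At day 5, 23 were lower (3.79% of all genes), and 19 at day 7 (3.83%). At day 10, 29 were lower (6.48%), and 22 at day 14 (6.4%). The median was -0.62 at day 3 and -0.43 at day 14, where all genes had 0.62 and 0.05. This scale has limits. Some fibre genes read near the series maximum of 14.85 (log2), with Acta1 at 14.38 and 14.40 and Ckm at 14.30 and 14.30 at day 0. Their fall may be understated there, which was not tested. The list also mixes fibre isoforms: at day 14 Myh1 and Myh2 read above day 0 and Myh4 below it.

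Named enzymes parted on this scale. Ivd stayed 0.97 below day 0 at day 3 (log2 change -0.97, limma adjusted p = 1.34e-05) and was -0.77 at day 14. Pcx was -0.96 at day 14 (adjusted p = 0.000182) and Bcat2 -0.78 (adjusted p = 0.000375). Bcat2 was not called on this scale at day 5 (-0.23, adjusted p = 0.121) or day 7 (-0.14, adjusted p = 0.339). Mdh2, with -0.03 at day 3 (adjusted p = 0.825), and Dlst, with -0.02 (adjusted p = 0.874), were not called there, and Got2 was at 0.13 (adjusted p = 0.299). Pdk1 was higher at day 3, by 0.48 (adjusted p = 0.0021). Cs was -0.33 at day 3 (adjusted p = 0.0135) and -0.21 at day 14 (adjusted p = 0.205).

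**Figure D5:**
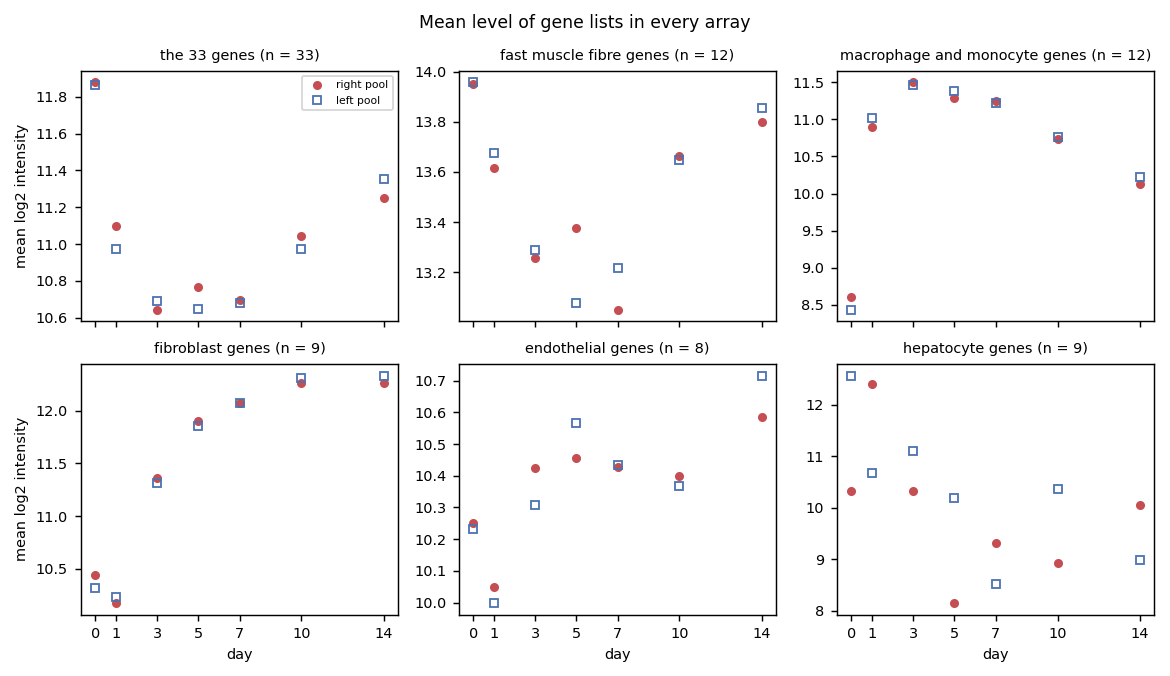
Mean log2 intensity (vertical axis, own scale in each panel) of the 33 genes and of 5 marker lists, by day (horizontal axis), with 1 point for each pool. The 33 genes and the fibre genes are low at days 3 to 7, macrophage genes are high there, fibroblast genes climb from day 1 on, and hepatocyte genes differ widely between right and left pools of a day.

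Neighbouring genes of the pathway were counted from lists of other members, likewise drawn up with earlier results in view. Of 7 other cycle enzymes measured, 5 fell and 0 rose at day 3, where 23.4% of all genes fell and 24.2% rose. At day 14, 4 of these enzymes fell (20.7% of all genes). Among them were subunits of succinate dehydrogenase, the cycle enzyme that sits in the respiratory chain: Sdha changed by -1.11 ± 0.08 at day 3, Sdhb by -1.56 ± 0.10 and Sdhc by -1.08 ± 0.08 (limma, adjusted p = 5.75e-07, 1.75e-07 and 6.9e-07). Of 13 other genes of branched-chain breakdown, 12 fell and 1, Bcat1, rose at day 3 (23.4% and 24.2% of all genes). At day 14, 10 of that list fell and 1 rose (20.7% and 21.4%). Aldh6a1, an enzyme of valine breakdown, had the largest fall of that list, -2.37 ± 0.12 at day 3 (adjusted p = 4.65e-08) and -1.28 ± 0.12 at day 14. Both enzymes that set the activity of the keto acid dehydrogenase fell: its kinase Bckdk by 1.34 ± 0.07 at day 7 and its phosphatase Ppm1k by 1.68 ± 0.16. Bcat1 read 10.37 and 10.49 at day 3, against 7.45 and 8.02 at day 0, a change of 2.69 ± 0.15 (adjusted p = 6.28e-08).

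Around pyruvate, 7 of 10 genes fell and 1, Pdk3, rose at day 3 (23.4% and 24.2% of all genes). At day 14, 9 fell and 1 rose (20.7% and 21.4%). Pdk4 read 13.34 and 13.36 at day 0, 13.98 and 13.97 at day 1, and 11.95 and 12.05 at day 7, so that it rose by 0.63 ± 0.10 at day 1 (limma, adjusted p = 0.000325) and fell by 1.35 ± 0.10 at day 7 (adjusted p = 5.58e-07). Pdk3 rose by 2.71 ± 0.14 at day 7 and was still 1.75 ± 0.14 higher at day 14. Of the 4 kinases, then, Pdk2 fell, Pdk3 rose, Pdk4 rose and then fell, and Pdk1 fell late. Ldhb, the lactate dehydrogenase subunit typical of oxidative tissue, read 8.80 and 8.65 at day 3, against 11.71 and 11.59 at day 0, a change of -2.93 ± 0.20 (adjusted p = 3.06e-07). Ldha, its glycolytic counterpart, changed by -0.29 ± 0.07 on that day. Ldha read 14.18 and 14.17 at day 0, near the series maximum of 14.85 (log2), and whether that limited its change was not tested. Mpc1, a subunit of the pyruvate carrier, changed by -1.45 ± 0.13 at day 7, and Pdpr, a regulator of the pyruvate dehydrogenase phosphatase, by -1.73 ± 0.08 at day 3.

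Among 13 genes of anaplerosis, malic enzymes and carriers, 6 fell and 3 rose at day 3, where 23.4% of all genes fell and 24.2% rose, and 6 fell and 2 rose at day 14 (20.7% and 21.4%). The malic enzymes, which make pyruvate from malate, divided: Me3 changed by -1.77 ± 0.10 and Me1 by -1.32 ± 0.10 at day 3, while Me2 rose by 1.89 ± 0.09 (limma, adjusted p = 3.32e-08). Gpt2, the mitochondrial alanine aminotransferase, changed by -2.00 ± 0.12 at day 3 and, like Pcx among the 33, was hardly higher at day 14, with -1.98 ± 0.12. The citrate carrier Slc25a1 rose by 0.72 ± 0.18 and Pck2, the mitochondrial phosphoenolpyruvate carboxykinase, by 0.57 ± 0.09 at day 3.

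Of 13 genes listed as regulators, 8 fell and 3 rose at day 3, where 23.4% of all genes fell and 24.2% rose. At day 14, 7 fell and 2 rose (20.7% and 21.4% of all genes). Ppargc1a, a coactivator of mitochondrial genes, changed by -2.97 ± 0.17 at day 3 (limma, adjusted p = 9.64e-08) and by -0.63 ± 0.17 at day 14. Its nuclear receptor partner Esrra changed by -1.05 ± 0.11 at day 1 and -0.84 ± 0.11 at day 14, and Ppara by -1.99 ± 0.20 at day 3. Klf15, a factor known to act on branched-chain breakdown genes, among them Bcat2, changed by -1.12 ± 0.12 at day 1, -1.14 ± 0.12 at day 3 and -0.80 ± 0.12 at day 14. Myc rose by 3.86 ± 0.09 at day 1 and 1.18 ± 0.09 at day 14, and Hif1a by 1.75 ± 0.09 and 1.31 ± 0.09 on the same days. No relation between these regulators and the 33 enzymes was tested.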

How the data were processed

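The arrays were processed by the authors with Partek, per the submitters' processing notes; its version, the summarising and the normalization are not given in the sources used here. Each probe set has 1 linear intensity per array in the deposited table, from 5.9 to 29501.5. The labels give 100 ng and, elsewhere, 250 ng of RNA. Their log2 was used with no further normalization. Of 35556 probe sets, 21789 had 1 gene symbol, 1621 had several and 12146 were unlisted in the platform annotation; each gene was read from its brightest probe set, which left 19938 genes. The number of arrays limits the precision: a difference between days had a median standard error of 0.0988.

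Genes were fitted with limma 3.58.1 in R 4.3.3, with 1 mean per day over all 14 arrays (7 residual degrees of freedom, 13 contrasts and a moderated F test), two-sided, with Benjamini-Hochberg adjustment over all genes within each comparison. Simulated data for day 3 against day 0 (19938 genes) held 50 changed genes at each fold size. Of 1.5-fold changes 64% were called, as were 98% of 2-fold, 100% of 4-fold and 98% of 8-fold changes, and 8 unchanged genes. Far more genes were called in the data at day 3, 23.4% lower and 24.2% higher, so the simulated shares need not hold there. The members and lists were chosen with earlier results of these data known. All 33 members are named; of other pathway genes, a short set always named and, per list, the 2 largest falls and rises among called genes at days 3 and 14. Some listed genes are not reported here. Alternatives were other normalizations, filters, probe set rules, variance priors, side as a block, a fold threshold, fibre genes as the scale, and pools left out. Figures were drawn with matplotlib 3.10.9.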

Additional observations from a re-analysis of the deposited data

How the results depend on the processing

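The calls against day 0 were the same, with Pdk1 at day 1 and Got2 at day 14 not called, under quantile normalization, equal array medians, both probe set rules, a trended prior and the filter on dim genes, except that at day 14 quantile normalization lost Cs (-0.19), Idh3b (-0.15) and Ogdh (-0.23). Right-minus-left differences of all genes correlated between days at -0.58 to 0.44 over 21 pairs of days, of which 9 passed 0.1, so pairing by side was not taken as shown; with side as a replicate block, 32 fell at day 1, 33 at day 3 and 32 at day 14, and the block changed none of the calls against day 0. With one pool left out at a time, the number called ranged from 32 to 32 at day 1, 32 to 33 at day 3, 33 to 33 at days 5, 7 and 10 and 27 to 32 at day 14. Between days it ranged from 17 to 22 (day 1 to 3), 0 to 1 (3 to 5), 0 to 0 (5 to 7), 7 to 23 (7 to 10), 0 to 13 (10 to 14), 27 to 29 (14 against 3) and 26 to 31 (14 against 7). With a 2-fold threshold 10 were called at day 1, 11 at day 10 and 1 at day 14, 0 in the steps from day 1 to 3, 3 to 5, 7 to 10 and 10 to 14, and 2 at day 14 against day 3 and against day 7. With only the arrays compared, Pdk1 lost its calls at day 3 (-0.21) and day 14 (-0.27), 0 were called from day 3 to 5 and 6 from day 10 to 14, and with equal medians 0 from day 3 to 5. Equal medians moved the median of all genes at day 3 to -0.17 and that of the 33 to -1.42. Relative to fibre genes, 19 were called at day 7, 9 from day 1 to 3 (5 lower, 4 higher), 0 from day 3 to 5, 8 from day 7 to 10 (7 lower, 1 higher), 0 from day 10 to 14, and 9 at day 14 against day 3 (3 lower, 6 higher) and against day 7 (6 lower, 3 higher). On that scale the sign turned for Dlst at day 5 (0.0585) and day 7 (0.16), Mdh2 at day 7 (0.0052), Got2 at days 3, 5 and 7 (0.13, 0.13 and 0.0644) and Pdk1 at days 3, 5 and 7 (0.48, 0.26 and 0.12). The cause of these differences was not tested. Small differences between neighbouring days lie near what 2 pools a day can show.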
